A study of Homo sapiens with 4 samples.

Results

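Long noncoding RNAs and the host RNAs of small nucleolar RNAs (snoRNAs) were followed in Caco-2 cells through 3 h of IFNγ. The group held 36 named RNAs, made of 17 snoRNA hosts, 5 microRNA hosts and 14 other long noncoding RNAs, out of 37515 genes in the count table. MIR22HG, one of the microRNA hosts, and LINC01749, one of the other RNAs, had been included because they rose strongly in this same comparison, so their values are given as a description with no test. The other 34 were named by kind, with earlier results of these data known. Of the 36 RNAs, 35 had a row and 33 passed the filter on low counts, 31 of them named by kind. SNHG4 had no row under the Ensembl identifier used, so only its promoter window was analysed. SNHG9 and HCP5 had too few counts to be tested.

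RNA sequencing of Caco-2, a human colorectal carcinoma line that takes on enterocyte features when grown to confluence, gave 4 libraries. All 4 library titles carry WT or wt, and all cells were grown on transwells for 15 days. In 2 libraries (replicates 1 and 2) the basal compartment had received 60 ng/ml IFNγ for 3 h. In the other 2 (also replicates 1 and 2) the cells were unstimulated controls at 0 h. IFNγ and the 3 h that passed cannot be told apart in this design, and nothing in the labels says that replicates were separate cultures, so p-values measure only the spread between these libraries. The libraries held 7171455 to 10365346 counts, and 1 CPM (a count scaled to library size) stood for 7.14 to 10.3 counts. IRF1 and TAP1, IFNγ-induced genes used to check the labels, had log2 fold changes of 5.86 and 5.36. All 10 epithelial markers were measured, with EPCAM at 648 to 850 CPM and VIL1 at 1576 to 1817 CPM. By the test used below, 4 of the 10 were higher and 1 lower, beside 9.02% of all tested genes higher and 11.0% lower. The leukocyte marker PTPRC had at most 0.195 CPM, while COL1A1, on the list of markers of other cells, had 89.4 to 179 CPM, with no separation between conditions.

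SnoRNAs guide the chemical modification and cleavage of ribosomal RNA, and most human snoRNAs are cut out of the introns of a host transcript. Many hosts encode ribosomal or translation proteins, while others, such as GAS5 and the SNHG genes, are noncoding, and their spliced RNA is often destroyed by nonsense-mediated decay soon after it is translated. Hosts commonly start at a C followed by a run of pyrimidines, the terminal oligopyrimidine start that ties them to the translation machinery. MicroRNA hosts release a hairpin from an intron or exon in a similar way. The remaining RNAs act in the nucleus or the cytoplasm as scaffolds, decoys or silencers, as MALAT1 and NEAT1 do in nuclear speckles and paraspeckles.

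The microRNAs that the hosts carry are shown because the libraries measured the host and not the mature microRNA. Capitals mark the seed, bases 2 to 8, and the sequences are from RefSeq on GRCh38.p14. MIR22HG carries miR-22, whose 2 arms have different seeds.
miR-22-3p: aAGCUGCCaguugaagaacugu
miR-22-5p: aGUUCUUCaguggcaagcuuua
MIR210HG lies with miR-210, a microRNA known for its induction in hypoxia.
miR-210-3p: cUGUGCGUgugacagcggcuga
MIR17HG carries 6 microRNAs, among which miR-17-5p and miR-20a-5p share the seed AAAGUGC, and miR-19a-3p and miR-19b-3p share GUGCAAA.
miR-17-5p: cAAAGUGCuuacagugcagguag
miR-20a-5p: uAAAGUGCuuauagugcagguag
miR-19a-3p: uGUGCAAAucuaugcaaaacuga
miR-19b-3p: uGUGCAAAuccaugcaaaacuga
MIR29B2CHG carries miR-29b and miR-29c, whose main arms share the seed AGCACCA.
miR-29b-3p: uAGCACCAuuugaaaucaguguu
miR-29c-3p: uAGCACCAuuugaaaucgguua

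The starts of a few hosts are shown because many snoRNA hosts begin at the pyrimidine run described above. RefSeq promoter windows of 300 bases, from 250 bases before the annotated start to 50 after it on GRCh38.p14, matched 29 of the 36 RNAs. LINC01749, SNHG6, SNHG9, SNHG15, NEAT1, KCNQ1OT1 and PVT1 had no entry. A C followed by at least 4 C or T, beginning within 5 bases of the annotated start on the gene's own strand, was found in 9 of the 14 snoRNA hosts with an entry, against 21.1% of 27305 promoters in the table. It was found in 3 of the 15 other RNAs with an entry. The windows below hold 20 bases on each side of the start, with the longest such run in capitals.
SNHG12: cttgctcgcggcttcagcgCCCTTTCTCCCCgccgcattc
SNHG5: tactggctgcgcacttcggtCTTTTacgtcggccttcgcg
ZFAS1: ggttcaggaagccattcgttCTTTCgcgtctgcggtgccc
SNHG17: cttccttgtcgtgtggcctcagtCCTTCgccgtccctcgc
SNHG1: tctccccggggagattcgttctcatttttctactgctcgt
SNHG3: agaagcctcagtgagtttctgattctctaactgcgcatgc
The runs of SNHG12 at chr1:28581854-28581893 (minus strand), SNHG5 at chr6:85678714-85678753 (minus), ZFAS1 at chr20:49278622-49278661 (plus) and SNHG17 at chr20:38435309-38435348 (minus) start within 4 bases of the annotated first base. SNHG1 at chr11:62855866-62855905 (minus) and SNHG3 at chr1:28505923-28505962 (plus) had no such run there, and both fell in the comparison below. GAS5, which fell too, also had none within 5 bases of its annotated start, while SNHG17, which has one, rose. Runs farther from the annotated start were not searched for, so a lack holds for that start only. The other tested hosts with an entry, with a run (such as SNHG5, SNHG12 and ZFAS1) or without one (SNHG14 and EPB41L4A-AS1), did not pass the test, and a relation of the run to direction was not tested.

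The same windows were searched on both strands for the core of the interferon-stimulated response element and for CACGTG, the E-box of MYC and its relatives. CACGTG was present in 4 of the 29 windows (SNHG7, TUG1, NORAD and OIP5-AS1), against 7.43% of all promoters. The core of the response element was present in 0, against 3.65%. The window of MIR22HG held neither. A match describes these letters only, and so does its lack.

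MIR22HG (ENSG00000186594) lies on chromosome 17 of GRCh37 from 1614741 to 1620468 on the minus strand. Its exons overlap no other annotated gene, with small-RNA genes (such as those of snoRNAs and microRNAs) left out here and below. It had 16.4 and 19.3 CPM in the unstimulated libraries and 133 and 136 CPM in the IFNγ libraries. Both IFNγ libraries stood far above both controls, and the log2 fold change was 2.92. LINC01749 (ENSG00000272259, chromosome 20, 61640735 to 61716423, plus strand, no exon overlap) had 1 count in each unstimulated library and 224 and 143 counts in the IFNγ libraries, which came to 21.8 and 19.5 CPM. With 367 summed counts against 2, the ratio was 181, an imprecise value because it rests on 2 control counts. LINC01749 passed the filter on low counts through its IFNγ libraries alone. The RNA was thus near the limit of detection before IFNγ, and the stimulated libraries lay close together. TLCD2, a protein-coding gene next to MIR22HG, rose from 8.67 and 7.0 CPM to 17.02 and 15.7 CPM (log2 fold change 1.05, edgeR adjusted p = 0.0113). WDR81, another gene beside it, had a log2 fold change of 0.08 and did not pass.

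**Figure D1:**
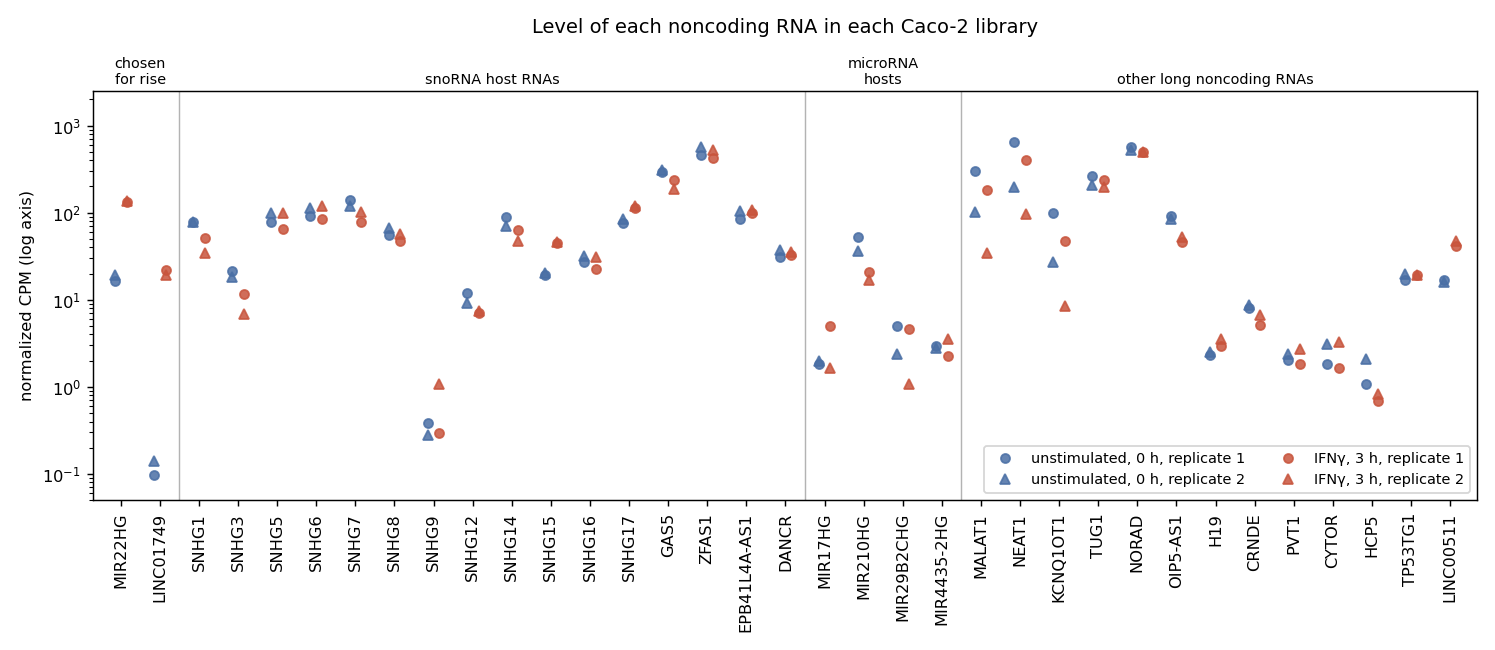
Normalized CPM on a log axis of the 35 noncoding RNAs with a row, grouped by kind, with 1 point for each library (blue, unstimulated at 0 h; red, IFNγ for 3 h; circles, replicate 1; triangles, replicate 2). MIR22HG and LINC01749 separate most between conditions, and MALAT1, NEAT1 and KCNQ1OT1 spread most within a condition.

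Among the 31 tested RNAs named by kind, 3 rose (SNHG15, SNHG17 and LINC00511) and 5 fell (SNHG1, SNHG3, GAS5, MIR210HG and OIP5-AS1) at an adjusted p-value under 0.05 in edgeR's quasi-likelihood test across all 14820 tested genes. These are 9.68% and 16.1% of the 31, beside 9.02% of all tested genes higher and 11.0% lower. With an absolute log2 fold change above 1 required as well, 2 were higher (SNHG15 and LINC00511) and 2 lower (SNHG3 and MIR210HG), 6.45% each, beside 2.88% and 4.40% of all tested genes. The libraries of the conditions did not overlap, with IFNγ higher, for 4 of the 31, beside 31.6% of all tested genes. They did not overlap, with IFNγ lower, for 10 of the 31, beside 30.8%. The median log2 fold change of the 31 was -0.12, against -0.01 for all tested genes. With the trend of GC content and length removed from each library, it was 0.17 against 0.02, so its sign turned.

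**Figure D2:**
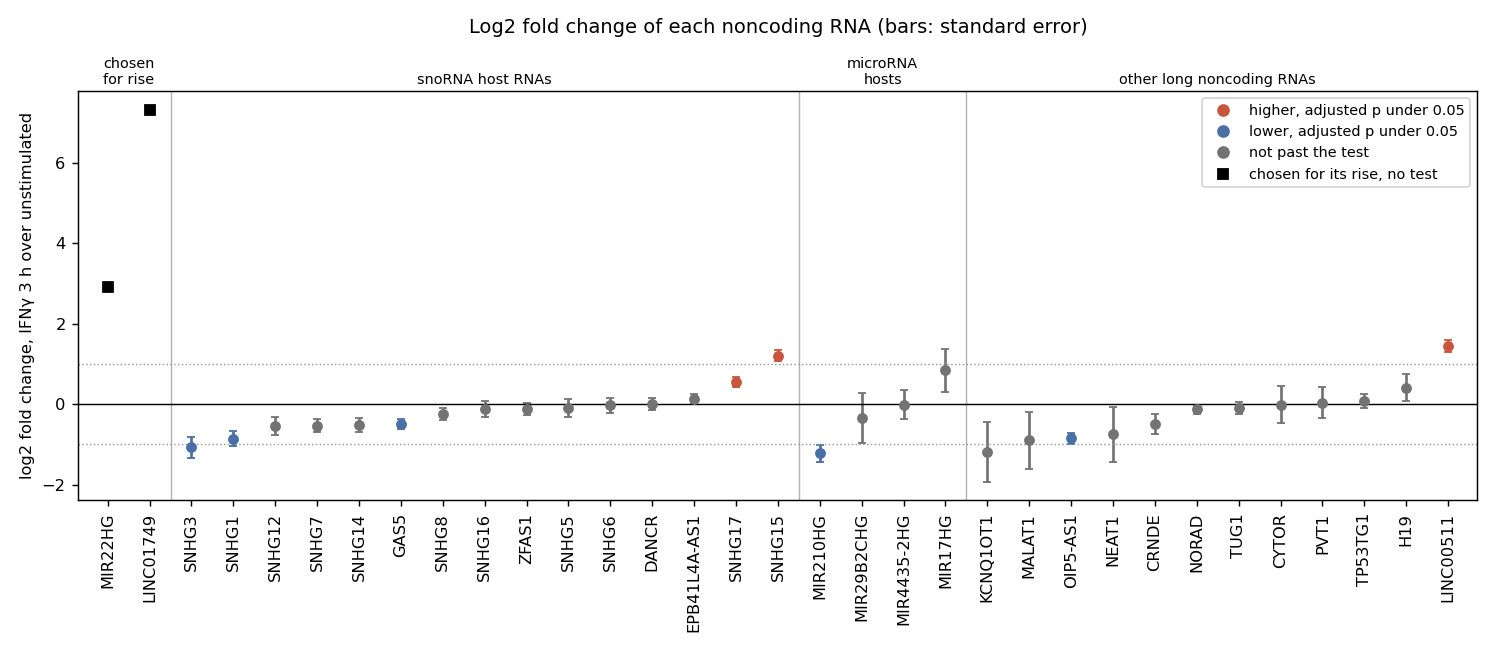
Log2 fold change of the 33 tested noncoding RNAs, IFNγ at 3 h over unstimulated, grouped by kind and ordered by value, with standard errors as bars and dotted lines at -1 and 1. Red and blue points passed the test higher and lower, grey points did not, and black squares are MIR22HG and LINC01749, shown with no test.

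The noncoding snoRNA hosts did not move together. Of the 15 tested, 2 rose (SNHG15 and SNHG17), 3 fell (SNHG1, SNHG3 and GAS5) and 10 did not pass the test. Of all tested genes, 9.02% rose and 11.0% fell. The median log2 fold change of the 15 was -0.12, with 12 values below 0 and 3 above. Among all tested genes 7494 values were below 0 and 7326 above. The log2 fold change of all tested genes rose with the GC content of the transcript (Spearman rho = 0.431 across 14518 genes, which are not independent replicates). With the trend of GC content and length removed from each library, the median of the hosts was 0.20, so its sign depended on that step.

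SNHG15, host of a box H/ACA snoRNA and a short-lived RNA, had 19.2 and 20.2 CPM in unstimulated cells and 44.4 and 46.2 CPM after IFNγ. Each pair of replicates lay within a few percent, far less than the distance between conditions. The log2 fold change was 1.20 (SE 0.14, adjusted p = 0.00243 from edgeR), and 1.15 with the GC trend removed. The gene (ENSG00000232956) runs from 45022618 to 45026560 on the minus strand of chromosome 7 of GRCh37. It shares no exon sequence with another annotated gene, small-RNA genes again left out of the search.

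SNHG17 (ENSG00000196756, chromosome 20, 37048285 to 37064052, minus strand) also hosts box H/ACA snoRNAs. It rose from 76.2 and 84.8 CPM to 114 and 121 CPM, with no overlap between conditions. The log2 fold change was 0.54 (SE 0.12, adjusted p = 0.0198 from edgeR). The call was lost with the GC trend removed (0.41, adjusted p = 0.0667 from edgeR), without IFNγ replicate 2 (0.48, adjusted p = 0.0607) and without unstimulated replicate 1 (0.47, adjusted p = 0.103).

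SNHG3 (ENSG00000242125, chromosome 1, 28832492 to 28837404, plus strand), which hosts box H/ACA snoRNAs used in the early cleavage of pre-ribosomal RNA, had the lowest value among the tested hosts. Its level fell from 21.5 and 18.3 CPM to 11.8 and 6.96 CPM (log2 fold change -1.07, SE 0.26, adjusted p = 0.0267 from edgeR). Both IFNγ libraries were below both controls, although they differed from each other. Without unstimulated replicate 1 the value was -0.95 and the call was lost (adjusted p = 0.0857 from edgeR), and without IFNγ replicate 2 it was -0.79. Its exons share 242 bases with those of RCC1 on the same strand, and RCC1 had a log2 fold change of -0.04.

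SNHG1 (ENSG00000255717, chromosome 11, 62619450 to 62623425, minus strand), a host of several box C/D snoRNAs, had 77.5 and 78.9 CPM in unstimulated cells and 51.4 and 34.4 CPM after IFNγ. The controls were nearly equal and both stimulated libraries lay below them, replicate 2 the farther. The log2 fold change was -0.86 (SE 0.19, adjusted p = 0.0201 from edgeR), and it passed the test under each alternative, from -1.20 to -0.63. SLC3A2, a gene next to SNHG1, encodes the heavy chain of amino acid transporters. SLC3A2 rose by 0.72 on the log2 scale (adjusted p = 0.0056 from edgeR), opposite in direction to SNHG1. WDR74, also next to SNHG1, had a log2 fold change of -0.02 and did not pass.

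GAS5, named for its rise in growth arrest and host of box C/D snoRNAs, had 290 and 310 CPM in unstimulated cells and 236 and 190 CPM after IFNγ. The conditions did not overlap, but the log2 fold change was small, -0.49 (SE 0.14, adjusted p = 0.0423 from edgeR). The call was lost with the GC trend removed (-0.14, adjusted p = 0.515 from edgeR). It was also lost without IFNγ replicate 2 (-0.37, adjusted p = 0.143) and without either unstimulated library (-0.54 without replicate 1, adjusted p = 0.0751, and -0.44 without replicate 2, adjusted p = 0.125). GAS5 (ENSG00000234741) runs from 173827697 to 173838020 on the minus strand of chromosome 1, and its exons share 132 bases with GAS5-AS1 on the other strand.

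SNHG7, SNHG12 and SNHG14 did not pass the test either, although their conditions did not overlap. On the log2 scale the difference was -0.53 for SNHG7 (edgeR adjusted p = 0.0534), -0.54 for SNHG12 (adjusted p = 0.136) and -0.52 for SNHG14 (adjusted p = 0.0799). SNHG7 had 139 and 119 CPM before and 77.6 and 101 CPM after IFNγ, and it passed with DESeq2 (-0.54, adjusted p = 0.0265) and with the GC trend removed (-0.77, adjusted p = 0.0123 from edgeR). SNHG14, the long transcript of the imprinted Prader-Willi region that carries many snoRNAs and runs antisense to UBE3A, had 88.5 and 71.2 CPM before and 63.5 and 47.8 CPM after. Its value was 0.33 with the GC trend removed, and UBE3A had -0.11.

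The other 7 tested hosts stayed within 0.25 of 0 on the log2 scale. ZFAS1, the host with the most counts, had 461 and 562 CPM before and 429 and 518 CPM after IFNγ (log2 fold change -0.11, SE 0.14), and the conditions overlapped. ZNFX1, a gene on the opposite strand beside ZFAS1 that encodes a helicase sensing viral RNA, rose from 55.8 and 51.7 CPM to 167 and 130 CPM (log2 fold change 1.47, adjusted p = 0.00166 from edgeR). DANCR had a log2 fold change of 0.00 (SE 0.15) and SNHG6 -0.03 (SE 0.19). EPB41L4A-AS1 had 0.13 (SE 0.13), SNHG5 -0.10 (SE 0.22), SNHG16 -0.12 (SE 0.19) and SNHG8 -0.24 (SE 0.16). SNHG9, with 2 to 8 counts in each library, was below the filter.

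The microRNA hosts named by kind gave 1 call among 4, lower past both thresholds, beside 4.40% of all tested genes. MIR210HG (ENSG00000247095, chromosome 11, 565657 to 568457, minus strand, no exon overlap outside small-RNA genes) fell from 52.1 and 36.01 CPM to 20.9 and 16.9 CPM. The unstimulated libraries differed from each other, yet both lay above both IFNγ libraries. The log2 fold change was -1.22 (SE 0.21, adjusted p = 0.00884 from edgeR), and -1.44 with the GC trend removed. Without unstimulated replicate 1 it was -0.92, short of the fold threshold but past the test. MIR17HG had 1.85 and 1.96 CPM in unstimulated cells and 4.96 and 1.64 CPM after IFNγ, so only IFNγ replicate 1, with 51 counts, was high (log2 fold change 0.84, SE 0.53, adjusted p = 0.303 from edgeR). With the GC trend removed its value was 1.52 (adjusted p = 0.0556 from edgeR), and without IFNγ replicate 1 it was -0.23. MIR29B2CHG had 8 to 52 counts and a log2 fold change of -0.34 (SE 0.62). MIR4435-2HG had 20 to 30 counts and -0.01 (SE 0.36). CYTOR, its near-identical relative elsewhere on chromosome 2, had 17 to 24 counts and -0.01 (SE 0.47), and reads could have been split between these RNAs. At these counts even a change larger than the standard error could go undetected.

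LINC00511 (ENSG00000227036, chromosome 17, 70286232 to 70636611, minus strand), a long intergenic RNA studied in carcinoma cells, rose most among the RNAs named by kind. It had 16.8 and 15.8 CPM in unstimulated cells and 41.5 and 47.8 CPM after IFNγ. Replicates lay close together in both conditions. The log2 fold change was 1.45 (SE 0.15, adjusted p = 0.00179 from edgeR), and it stayed between 1.32 and 1.53 under the alternatives. OIP5-AS1 (ENSG00000247556, chromosome 15, 41576156 to 41614590, plus strand), a cytoplasmic RNA known for binding miR-7 and the RNA-stabilising protein HuR, fell from 91.7 and 85.2 CPM to 45.7 and 52.9 CPM. Conditions did not overlap (log2 fold change -0.85, SE 0.13, adjusted p = 0.006 from edgeR). With the GC trend removed the value was -0.29 and the call was lost (adjusted p = 0.281 from edgeR). Its exons share 759 bases with OIP5 on the other strand and 195 with NUSAP1 on its own strand.

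MALAT1, NEAT1 and KCNQ1OT1, which stay in the nucleus, differed more between replicates than between conditions. MALAT1 had 302 CPM in unstimulated replicate 1 and 102 in replicate 2, and 180 and 34.8 CPM in the IFNγ libraries. NEAT1, the scaffold of paraspeckles, had 656 and 196 CPM before and 407 and 97.4 CPM after. KCNQ1OT1, the imprinted antisense RNA of the KCNQ1 region, had 100 and 27.5 CPM before and 47.1 and 8.60 CPM after. In each condition replicate 1 was the high library for all 3, and for all 3 the conditions overlapped. On the log2 scale replicate 1 exceeded replicate 2 by 1.57 (MALAT1), 1.74 (NEAT1) and 1.86 (KCNQ1OT1) in unstimulated cells. In the IFNγ libraries it did so by 2.37, 2.06 and 2.42. These differences stood above those of 99.26% to 99.71% of tested genes in unstimulated cells and 99.62% to 99.83% in the IFNγ libraries. MIR29B2CHG followed, with 1.02 and 1.89. The snoRNA hosts showed no such gap, with medians of -0.15 and -0.10. The log2 fold changes between conditions were -0.90 (SE 0.71) for MALAT1, -0.75 (SE 0.69) for NEAT1 and -1.18 (SE 0.75) for KCNQ1OT1, and edgeR gave adjusted p-values of 0.41, 0.478 and 0.304. Without IFNγ replicate 1 they were -2.56, -2.16 and -2.93, and all 3 passed the test. Without unstimulated replicate 1 they were 0.09, 0.37 and 0.05, and none of the 3 passed. The part that nuclear RNA content of the libraries had in this was not tested.

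**Figure D3:**
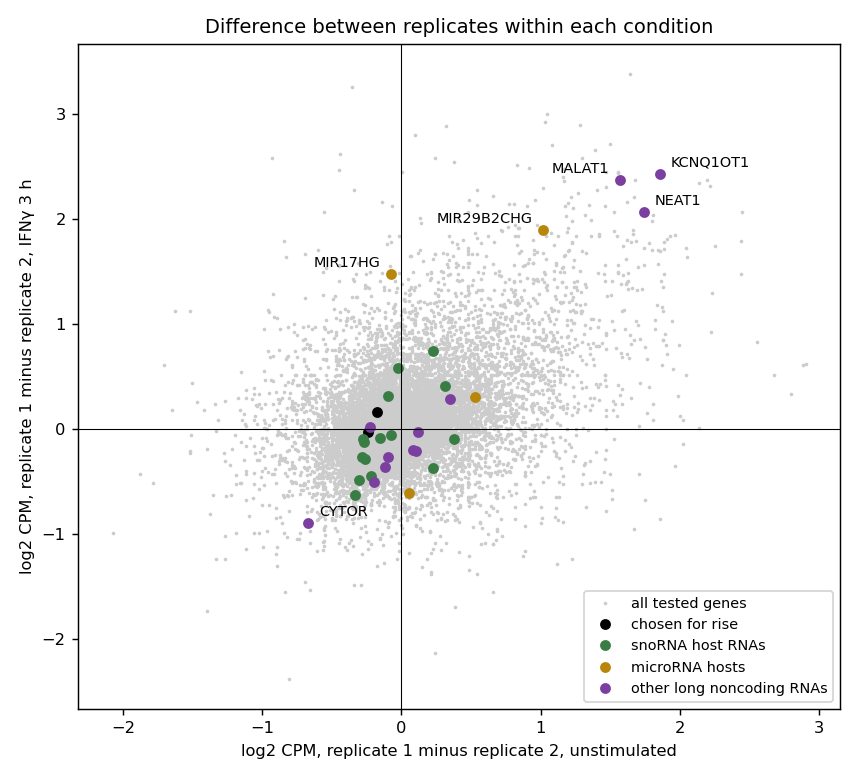
Log2 CPM of replicate 1 minus replicate 2 in the unstimulated libraries (horizontal axis) and in the IFNγ libraries (vertical axis) for all 14820 tested genes (grey) and the noncoding RNAs by kind (colored). MALAT1, NEAT1 and KCNQ1OT1 sit at the upper right, at 1.57 to 1.86 and 2.06 to 2.42, while the snoRNA hosts lie near the origin.

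The remaining long noncoding RNAs did not pass the test. NORAD, which binds pumilio proteins in the cytoplasm, had 568 and 524 CPM before and 493 and 504 CPM after IFNγ, a log2 fold change of -0.13 (SE 0.11). TUG1 had 262 and 205 CPM before and 240 and 197 CPM after (-0.10, SE 0.16). TP53TG1, a target of p53, had 0.08 (SE 0.16), and CRNDE, named for its expression in colorectal neoplasia, had -0.50 (SE 0.25). H19, the maternally expressed imprinted RNA, had 18 to 30 counts and 0.41 (SE 0.33). PVT1 had 17 to 21 counts and 0.03 (SE 0.39), while its neighbour MYC rose from 50.2 and 66.0 CPM to 387 and 459 CPM (log2 fold change 2.87, adjusted p = 0.000287 from edgeR). HCP5, which lies in the MHC class I region, had 11 and 15 counts before and 7 and 6 after, too few to be tested.

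The proteins that work with these RNAs gave a mixed picture. Of 17 tested snoRNA-protein core and assembly factors, 3 rose and 1 fell, beside 9.02% of all tested genes higher and 11.0% lower. Those 2 shares also stand beside the counts of each list that follows. NOP56, a core protein of box C/D particles, rose by 0.72 on the log2 scale (adjusted p = 0.00707 from edgeR). RRP9, which belongs to the U3 particle, had 0.83 (adjusted p = 0.0208), and GAR1, a core protein of box H/ACA particles, had 0.80 (adjusted p = 0.0386). RPAP3, an assembly cofactor, fell by 0.9999 (adjusted p = 0.0199). Their median was 0.20. Of 37 protein-coding snoRNA hosts 3 rose and 2 fell, with a median of 0.17. These were PPAN (1.34), NOP56 and WDR43 (0.49), and EIF4A2 (-0.64) and TAF1D (-0.61). PPAN had at most 4.23 CPM. With the GC trend removed, 5 of these calls were lost. PPAN (1.11, adjusted p = 0.0723 from edgeR) and RRP9 (0.61, adjusted p = 0.0525) kept most of their size. RPAP3 (-0.42, adjusted p = 0.142), EIF4A2 (-0.21, adjusted p = 0.348) and TAF1D (-0.09, adjusted p = 0.691) moved towards 0.

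Among 10 factors of nonsense-mediated decay, the pathway that destroys spliced snoRNA hosts, 1 rose and 2 fell. UPF1, the central helicase, went from 117 and 122 CPM to 154 and 162 CPM (log2 fold change 0.40, adjusted p = 0.0423 from edgeR, and 0.22 with adjusted p = 0.343 with the GC trend removed). UPF2, its activating partner, fell from 67.0 and 77.1 CPM to 37.4 and 26.7 CPM (-1.16, adjusted p = 0.00612 from edgeR). UPF3B fell by 0.66 (adjusted p = 0.0256 from edgeR), and with the GC trend removed its value was -0.45 (adjusted p = 0.095). Of 9 factors of microRNA processing 1 rose, TARBP2, a partner of Dicer (0.56, adjusted p = 0.0314 from edgeR, and 0.33 with adjusted p = 0.157 with the GC trend removed). With DESeq2, 0 of the 9 passed.

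PUM2, which encodes a pumilio protein that NORAD binds, fell while NORAD did not pass the test. It went from 214 and 250 CPM to 113 and 121 CPM (log2 fold change -0.98, SE 0.13, adjusted p = 0.00339 from edgeR). Of 7 paraspeckle proteins 2 rose. SFPQ, which NEAT1 gathers into paraspeckles, rose from 213 and 175 CPM to 405 and 420 CPM (1.09, SE 0.13, adjusted p = 0.00269 from edgeR). RBM14 rose by 0.49 (adjusted p = 0.0397 from edgeR, and 0.40 with adjusted p = 0.0685 with the GC trend removed), and NONO had 0.11 and did not pass.

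Of 28 tested protein-coding genes next to the noncoding RNAs, 4 rose (TLCD2, SLC3A2, ZNFX1 and MYC) and 2 fell. BCL2L11, which encodes the death-promoting protein BIM and lies beside MIR4435-2HG, fell from 82.1 and 76.1 CPM to 40.7 and 38.3 CPM (log2 fold change -1.001, adjusted p = 0.00328 from edgeR). MICB, a ligand of the NKG2D receptor beside HCP5, fell by 0.75 (adjusted p = 0.0401 from edgeR). The median over the 28 was 0.05.

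**Figure D4:**
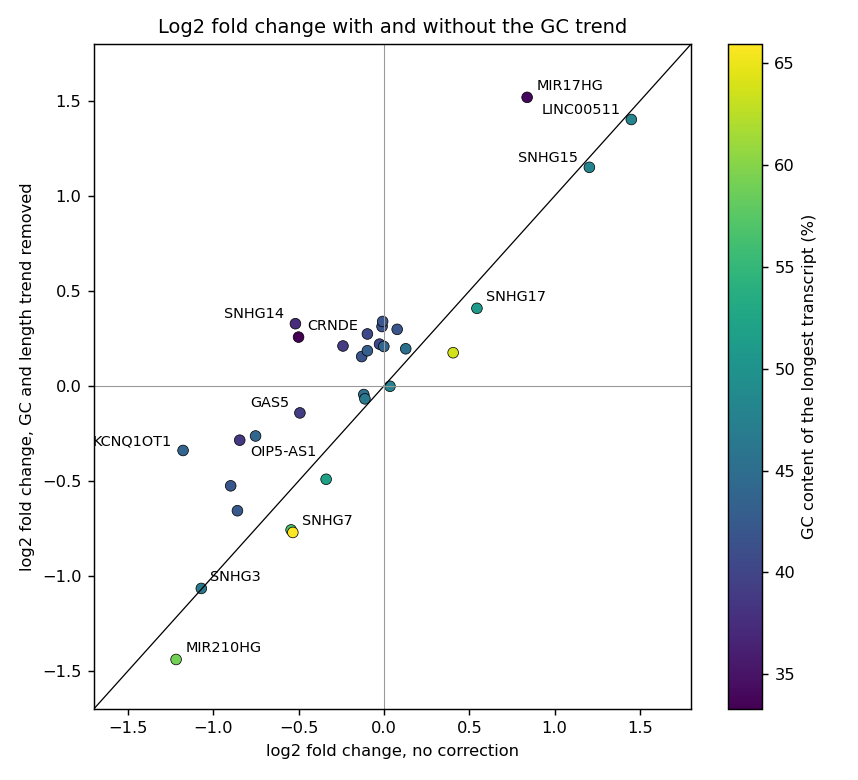
Log2 fold change of the 31 noncoding RNAs named by kind, without correction (horizontal axis) and with the trend of GC content and length removed from each library (vertical axis), colored by the GC content of the longest transcript. The line marks equal values. SNHG15, LINC00511, SNHG3 and MIR210HG keep their side, while OIP5-AS1 and GAS5 move towards 0 and SNHG14 and CRNDE are among those that cross it.

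Overlaps with small-RNA genes, such as those the hosts carry, were not counted. Apart from these, exons of 24 of the 35 RNAs overlap those of another annotated gene, 22 of them one on the opposite strand. Whether reads were assigned by strand is not given in the sources used here, so for those RNAs the reads of the overlapping gene cannot be told apart. In these bulk libraries fewer cells making an RNA and less of it per cell also cannot be told apart. Levels are compared between libraries for 1 RNA at a time, since the lengths of many of these transcripts depend on the annotation.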

How the data were processed

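RNA-seq counts of 4 Caco-2 libraries were used, 2 for each condition. The deposited table holds whole-number counts for Ensembl genes, made by the authors without normalization or pooling of replicates. The submitters' processing notes name HISAT 0.5.1 and HTSeq 0.6.1p1, while the genome build, annotation and strand setting for these libraries are not given in the sources used here. Symbols matched 96.5% of the rows, and coordinates are those of GENCODE 44 mapped to GRCh37, which need not be the annotation used for counting.

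The whole table was fitted with edgeR 4.0.16 in R 4.3.3 (default low-count filter, TMM scaling, quasi-likelihood test), with Benjamini-Hochberg adjustment over the 14820 tested genes. Each standard error came from the fold change and its F statistic (the log2 value over the root of F). The 2 thresholds were an adjusted p-value under 0.05, and that with an absolute log2 fold change above 1. CPM used the TMM factors, and log2 CPM of single libraries a prior count of 2. The GC and length trend was a loess fit (span 0.3) of each library, entered as offsets. The alternatives were other scalings, filters, DESeq2 1.42.0, a replicate block, the GC trend and each library left out. The fits were tested on simulated data. All listed noncoding RNAs are named, and from the other lists the genes past both thresholds. Genes of those lists past the adjusted p-value alone, and WDR81, WDR74, RCC1, UBE3A and NONO, were named after their values were seen. A few results are not reported here. The noncoding RNAs and the lists were chosen with earlier results of these data known.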

Additional observations from a re-analysis of the deposited data

How the results depend on the processing

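The 2 RNAs higher past both thresholds were 2 or 3 in number under every alternative run. The number lower, 2, was 4 with the replicate block and 5 with no fold change threshold, and leaving out 1 library at a time gave 0 (without unstimulated replicate 1) to 6 (without IFNγ replicate 1). Those fits assume that the lone library of a condition varies like the others. The median log2 fold change of the snoRNA hosts, -0.12, was 0.20 with the GC and length trend removed, and 0.20 with the replicate block as well. Leaving out 1 library at a time gave -0.37 to 0.0071, the latter without IFNγ replicate 1. The cause was not tested.

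Same-numbered libraries share only a number in the labels, and their deviations from the condition means correlated across genes (r = 0.415). With the replicate block MALAT1 (-1.08), NEAT1 (-0.84), KCNQ1OT1 (-1.28), SNHG7 (-0.54) and SNHG14 (-0.52) passed the test, and the 8 RNAs of the fit without it passed as well. With the block and the GC trend removed together SNHG14 reversed to 0.32, and MIR17HG passed (1.51). Of 421 values refitted over 33 RNAs, 384 kept their side of the test, 25 passed only in the alternative, 10 were lost, 1 reversed and 1 moved. The 384 include changes of sign where neither fit passed, such as 7 alternatives of DANCR. MIR22HG and LINC01749 had no test, so their values were counted as kept when within the standard deviation of their same-numbered pairs. The value that moved was that of LINC01749 without unstimulated replicate 1. Without a filter on low counts the spread was taken from the trend across genes alone.

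Precision was limited by 2 libraries a condition, and by counts for H19, PVT1, CYTOR, MIR4435-2HG, MIR17HG and MIR29B2CHG.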

Other observations

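The table held 7888 other rows annotated as lncRNA, and 933 of them were tested. Of these, 27 were higher and 39 lower past both thresholds (2.89% and 4.18%), and their median log2 fold change was -0.17. Among 21 tested host RNAs outside the list, 0 passed the adjusted p-value in edgeR's quasi-likelihood test and 0 in DESeq2. DESeq2 gave no adjusted p-value to 3161 of the 14820 genes, and such genes counted as not passing. In edgeR 3 of the 21 had an unadjusted p under 0.05, and the log2 fold changes were -1.27 to 0.84. The 280 rows of snoRNAs and scaRNAs held 662 counts in all 4 libraries together, and 0 passed the filter, so the products of the snoRNA hosts were not measured here. Of 342 rows of microRNA genes 5 passed the filter. Of these, 0 passed the adjusted p-value in edgeR's quasi-likelihood test, 0 in DESeq2 and 0 at an unadjusted p under 0.05. In DESeq2 a gene without an adjusted p-value again counted as not passing.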
